A study of Mus musculus and Rattus norvegicus with 6 samples.

Results

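Genes of plasminogen activation and coagulation control were examined in cultured mouse smooth muscle cells (SMCs) depleted of YAP and TAZ. The group holds 9 vessel wall genes, chosen by name with no threshold on their values but with earlier results of these data known. It was taken from the 55573 genes of the deposited table. Its members are the activators Plat and Plau, the urokinase receptor Plaur, the serpin Serpine2, the coagulation initiator F3, the inhibitors Tfpi and Tfpi2, and the anticoagulant receptors Thbd and Procr. All 9 passed the filter on low counts.

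Bulk RNA-seq was available for 2 libraries of SMCs transfected with siRNAs against YAP and TAZ (siYAP/TAZ) and 2 libraries of SMCs transfected with a control siRNA (siCo). The labels give both groups a wild-type genotype and name the cells MOVAS, an immortalised line of mouse aortic SMCs, whereas the legends of the study call them primary SMCs of the penis. The methods and labels do not say which siRNA mix each library received or whether the 2 libraries of a group were separate cultures. A legend calls the 2 samples of a qRT-PCR of genes taken from the RNA-seq biologically independent, without saying whether these are the sequenced samples. The p-values therefore cover the spread among the sequenced libraries, part of which may be technical. With 2 libraries per group, that spread was estimated mainly from the trend over all genes. In bulk RNA, fewer cells of a type cannot be told apart from less RNA per cell. The same 2 genes were targeted in both siYAP/TAZ libraries, and TAZ is the product of Wwtr1.

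Tissue factor, the product of F3, starts coagulation by binding factor VIIa, and TFPI blocks this complex together with factor Xa. Thrombin is restrained on the vessel surface by thrombomodulin (Thbd), which turns it towards activation of protein C, and the protein C receptor (Procr) presents protein C to that complex. Clots and matrix are degraded by plasmin, which the activators tPA (Plat) and uPA (Plau) release from plasminogen, and serpins such as protease nexin-1 (Serpine2) inhibit these activators. YAP and TAZ are coactivators that bind DNA through TEAD factors.

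Libraries held 17192309 to 18751368 counts. Levels are given as FPKM, the count of a gene per kilobase of exon and scaled to the total count of the library, and fold changes are those fitted by edgeR to TMM-normalised counts of 15479 genes (siYAP/TAZ over siCo). Yap1 was at 1.87 and 2.03 FPKM in siYAP/TAZ cells and at 21.9 and 23.5 FPKM in siCo cells. Wwtr1 was at 16.8 and 17.6 FPKM in siYAP/TAZ cells and at 56.5 and 59.1 FPKM in siCo cells, so both targets were lower in every siYAP/TAZ library, Wwtr1 with more RNA left than Yap1. The 10 smooth muscle markers examined summed to 111 and 107 FPKM in siYAP/TAZ cells and to 214 and 218 FPKM in siCo cells, with 1 higher, 6 lower and 3 not passed. Acta2 made up most of this sum, with means of 67.4 and 140.2 FPKM in siYAP/TAZ and siCo cells. Des, which encodes desmin, rose (means of 1.79 and 1.18 FPKM, edgeR adjusted p = 0.005302), and Smtn, Synpo2 and Myocd did not pass. The contractile markers Myh11 and Myocd were low in both groups, as Myh11 had means of 0.954 and 1.29 FPKM in siYAP/TAZ and siCo cells and Myocd had 7 and 6 counts in siYAP/TAZ libraries and 21 and 10 counts in siCo libraries.

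All 9 genes differed between siYAP/TAZ and siCo cells. Serpine2, Plat and Tfpi2 rose and the other 6 fell, F3 by far the most. The fall of Thbd was the smallest, and its call was lost under 3 of 11 alternatives. Thus 3 of 9 were higher, where 27.6% of all genes tested were called higher, and 6 of 9 lower, where 27.7% were called lower (edgeR's quasi-likelihood test, Benjamini-Hochberg adjusted p under 0.05). By mean normalised count, the 9 genes stood above 66.6% (Tfpi) to 99.5% (Serpine2) of genes tested. Smaller changes can be called at higher counts, and the share called among genes of like level was not computed. Serpine2, Plat and F3 were called with a change of at least 2-fold, as were 10.3% of all genes tested. The FPKM of the groups did not overlap for any of the 9, as for 77.2% of all genes tested. The median log2 fold change of the 9 genes was -0.21, against -0.000329 over all genes tested. Their summed level was nearly the same in both groups, at 559.9 and 570.1 FPKM in siYAP/TAZ cells and 564 and 572 FPKM in siCo cells, and overlapped between them.

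**Figure D1:**
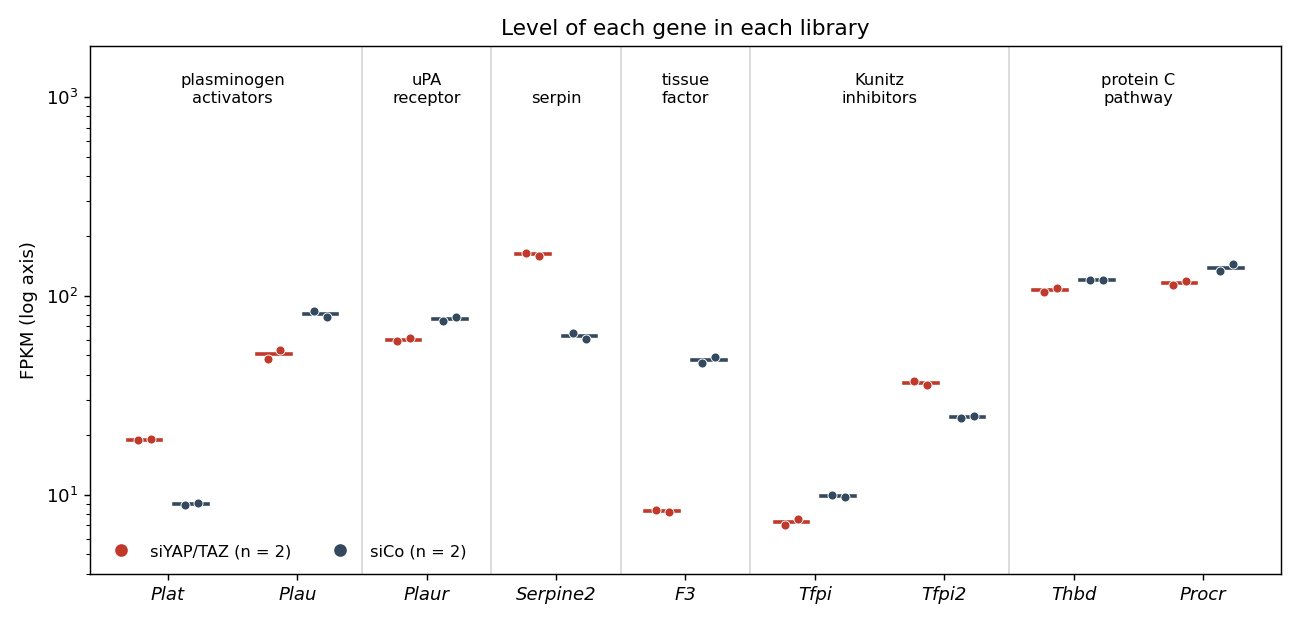
FPKM (log axis) of the 9 genes in each of 2 siYAP/TAZ and 2 siCo libraries, with 1 point per library and a bar at the mean of each group. F3 lies at 8.31 and 8.15 FPKM in siYAP/TAZ cells and at 46.0 and 48.9 FPKM in siCo cells, and Serpine2 at 164 and 159 FPKM in siYAP/TAZ cells and at 64.6 and 60.2 FPKM in siCo cells.

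F3 encodes tissue factor (chromosome 3, plus strand, from 121723537 to 121735048, in mm10 as for all gene coordinates given here). It was counted 394 and 354 times in siYAP/TAZ libraries and 2140 and 2229 times in siCo libraries. This corresponds to 8.31 and 8.15 FPKM in siYAP/TAZ cells, against 46.0 and 48.9 FPKM in siCo cells. Both siYAP/TAZ libraries were far below both siCo libraries, and the difference between the groups exceeded the spread within each. F3 averaged 8.23 FPKM ± 0.118 in siYAP/TAZ cells and 47.5 FPKM ± 2.07 in siCo cells (SD, n = 2 each). The log2 fold change was -2.48 with a standard error of 0.0650, or 5.59-fold lower (adjusted p = 1.204e-17, edgeR). F3 was thereby the gene ranked 38 of 15479 from the most negative log2 fold change. With limma on log2(FPKM + 1), the log2 fold change of F3 was -2.39 (adjusted p = 2.3e-05, limma).

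The 3 genes whose profile over the 4 libraries was nearest to that of F3, by Euclidean distance of gene-centred log2 CPM over the 8405 genes that reached a mean of 5 FPKM in either group, were Ccn2, Apln and Vgll3. Ccn2 encodes a matricellular protein and had a distance of 0.0675 and a log2 fold change of -2.42. Apln, which encodes the peptide apelin, had a distance of 0.085 and a log2 fold change of -2.44. Vgll3, a cofactor of TEAD proteins, had a distance of 0.206 and a log2 fold change of -2.30. With 4 libraries in 2 groups, this distance is set mainly by the size of the fold change.

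The RefSeq window before the annotated start of F3 is shown because the letters of the AP-1 motif, TGANTCA, occur in it at 2 places. In the 250 bases on chromosome 3 from 121723287 to 121723536 (GRCm38.p6, plus strand, 5′ to 3′), capitals mark TGAATCA at 146 bases and TGAGTCA at 135 bases upstream of the start.
F3: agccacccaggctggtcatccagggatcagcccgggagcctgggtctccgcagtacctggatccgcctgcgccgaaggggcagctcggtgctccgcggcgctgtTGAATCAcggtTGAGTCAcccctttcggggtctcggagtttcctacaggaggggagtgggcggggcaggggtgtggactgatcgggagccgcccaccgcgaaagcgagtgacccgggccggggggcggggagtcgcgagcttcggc

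Both strands of the 300-base RefSeq windows, from 250 bases before to 50 bases after each start, were searched for TGANTCA and for GGAATG, the letters of the TEAD motif. Of the 9 genes, 6 had a window (Serpine2, Plaur, F3, Tfpi, Tfpi2 and Procr), with 9 windows in all. GGAATG was in 0 of these 9 windows, and in 14.7% of all 32851 windows. TGANTCA occurred in 4 of these 9 windows, 1 each of F3, Plaur, Procr and Tfpi2, and in 7.81% of all windows. At 2 or more places it was held by 0.46% of all windows. The match in Tfpi2 was in 1 of its 3 windows, that of the start at 3968375. The other windows of Tfpi2, of the starts at 3988858 and 3988936, overlap, so the 9 windows are not 9 separate promoters. Enrichment was not tested. No match was found in the windows of Serpine2 or Tfpi. These 4 genes include Tfpi2, which rose, and 3 that fell. A match of letters is a description of the window and does not show that a factor binds there.

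The Kunitz-type inhibitors Tfpi and Tfpi2 moved in opposite directions. Tfpi encodes the Kunitz-type inhibitor of the complex of tissue factor and factor VIIa (chromosome 2, minus strand, from 84432855 to 84476775). It was at 7.02 and 7.53 FPKM in siYAP/TAZ cells and at 9.95 and 9.73 FPKM in siCo cells. Both siYAP/TAZ libraries were lower, with a log2 fold change of -0.39 ± 0.0671 (standard error; edgeR adjusted p = 3.756e-05).

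Tfpi2 encodes a related Kunitz-type protein, secreted into the matrix, that inhibits plasmin (chromosome 6, minus strand, from 3962595 to 3988919). It was at 37.3 and 35.4 FPKM in siYAP/TAZ cells and at 24.4 and 24.7 FPKM in siCo cells. Tfpi2 was higher in both siYAP/TAZ libraries, with a log2 fold change of 0.61 ± 0.0630 (standard error; edgeR adjusted p = 3.799e-08). Summed per length, Tfpi and Tfpi2 came to 44.3 and 43.0 FPKM in siYAP/TAZ cells and to 34.3 and 34.5 FPKM in siCo cells. Most of this sum was Tfpi2 in all 4 libraries.

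The anticoagulant receptors were among the most highly expressed of the 9 genes and changed least. Procr encodes the endothelial protein C receptor (chromosome 2, plus strand, from 155751117 to 155755471). It was at 113 and 118 FPKM in siYAP/TAZ cells and at 133 and 143 FPKM in siCo cells. Both siYAP/TAZ libraries were below both siCo libraries, with a log2 fold change of -0.21 ± 0.0471 (standard error; edgeR adjusted p = 0.0006853).

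Thbd encodes thrombomodulin (chromosome 2, minus strand, from 148404466 to 148408188). It was at 104 and 109 FPKM in siYAP/TAZ cells and at 119.3 and 119.7 FPKM in siCo cells. The log2 fold change was -0.12 ± 0.0419 (standard error; edgeR adjusted p = 0.02027), the smallest of the 9 genes. This call did not hold with upper quartile factors (-0.08, adjusted p = 0.117), without siYAP/TAZ replicate 1 (-0.08, adjusted p = 0.305) or without siYAP/TAZ replicate 2 (-0.145, adjusted p = 0.0615, all edgeR). The log2 fold change of Thbd lay between -0.16 and -0.08 over all 11 alternatives.

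The 2 plasminogen activators moved in opposite directions. Plat encodes tPA, which acts mainly on fibrin (chromosome 8, plus strand, from 22757727 to 22782844). It was at 18.74 and 19.03 FPKM in siYAP/TAZ cells and at 8.89 and 9.09 FPKM in siCo cells. Plat was higher in both siYAP/TAZ libraries, with means of 18.9 FPKM ± 0.206 in siYAP/TAZ cells and 8.99 FPKM ± 0.140 in siCo cells (SD, n = 2 each). The log2 fold change was 1.11 ± 0.0528 (standard error; edgeR adjusted p = 1.503e-13), or 2.17-fold higher.

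Plau encodes uPA, which acts mainly at cell surfaces and in matrix (chromosome 14, plus strand, from 20836660 to 20843385). It was at 48.3 and 53.0 FPKM in siYAP/TAZ cells and at 83.8 and 78.0 FPKM in siCo cells. Plau was lower in both siYAP/TAZ libraries, with a log2 fold change of -0.63 ± 0.0523 (standard error; edgeR adjusted p = 1.26e-09). Per length, Plau stood above Plat in all 4 libraries. The sum of both activators was 67.0 and 72.1 FPKM in siYAP/TAZ cells and 92.7 and 87.1 FPKM in siCo cells.

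Plaur encodes the GPI-anchored receptor of uPA (chromosome 7, plus strand, from 24462484 to 24475968). It was at 59.2 and 60.9 FPKM in siYAP/TAZ cells and at 74.7 and 77.8 FPKM in siCo cells. Plaur was lower in both siYAP/TAZ libraries, with a log2 fold change of -0.30 ± 0.0456 (standard error; edgeR adjusted p = 8.954e-06). Windows of Procr, which fell, and Tfpi2, which rose, hold TGANTCA too and are not shown. The RefSeq window of Plaur, shown beside that of F3, holds it once. In the 250 bases on chromosome 7 from 24462233 to 24462482 (GRCm38.p6, plus strand, 5′ to 3′), capitals mark TGACTCA at 69 bases upstream of the start.
Plaur: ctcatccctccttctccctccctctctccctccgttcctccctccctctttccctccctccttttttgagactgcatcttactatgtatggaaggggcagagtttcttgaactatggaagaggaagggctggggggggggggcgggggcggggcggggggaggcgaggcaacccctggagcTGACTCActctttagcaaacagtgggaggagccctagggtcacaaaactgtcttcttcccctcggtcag

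Serpine2 encodes protease nexin-1, a serpin that inhibits thrombin, uPA, tPA and plasmin (chromosome 1, minus strand, from 79794197 to 79861180). It was at 164 and 159 FPKM in siYAP/TAZ cells and at 64.6 and 60.2 FPKM in siCo cells. Both siYAP/TAZ libraries were well above both siCo libraries, with means of 161 FPKM ± 3.53 in siYAP/TAZ cells and 62.4 FPKM ± 3.12 in siCo cells (SD, n = 2 each). The log2 fold change was 1.41 ± 0.0430 (standard error; edgeR adjusted p = 1.275e-16), or 2.66-fold higher. This was the largest increase of the 9 genes.

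**Figure D2:**
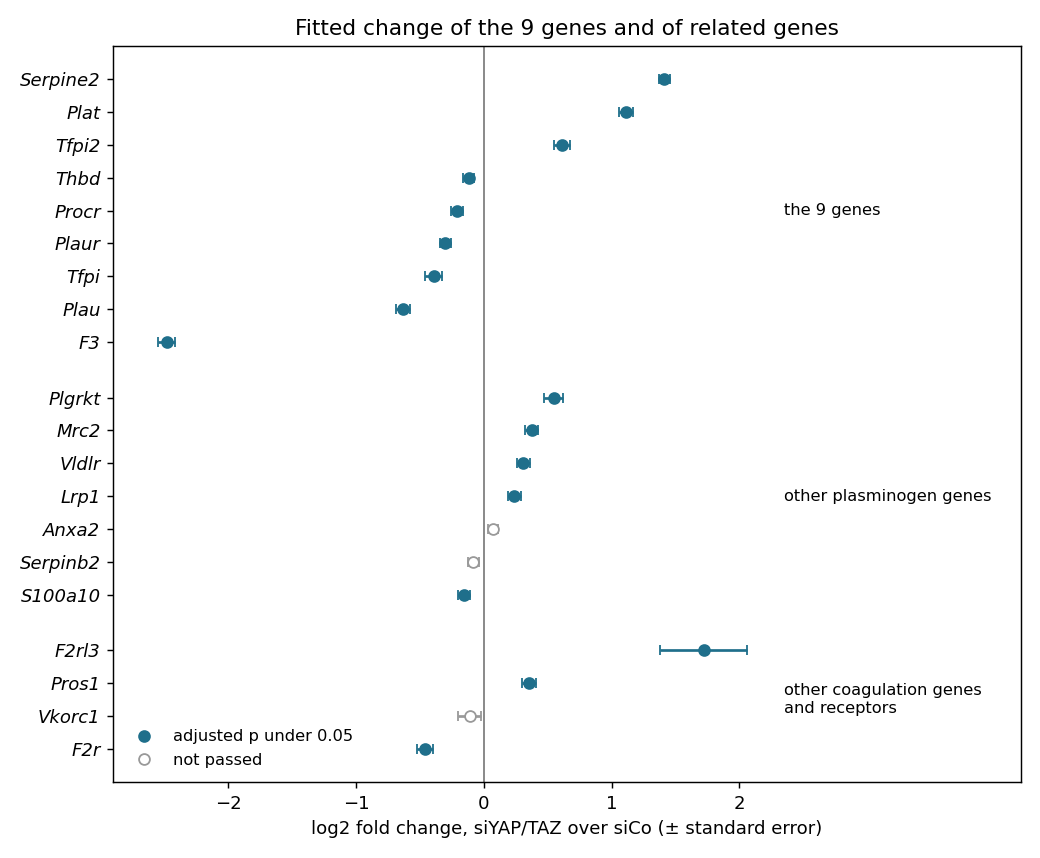
Log2 fold change fitted by edgeR, siYAP/TAZ over siCo, with its standard error, for the 9 genes and for a selection of related genes. These are other genes of the plasminogen and coagulation systems and the protease-activated receptors F2r and F2rl3, each with a mean of 1 FPKM or more in either group. F2rl3, the highest point at 1.72, had 65 and 43 counts in siYAP/TAZ libraries and 22 and 12 in siCo libraries. Filled points have an adjusted p under 0.05 and open points do not. Serpine2 is highest of the 9 genes at 1.41 and F3 lowest at -2.48.

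The order of the levels per length differed between the groups. Serpine2 was highest in siYAP/TAZ cells, followed by Procr, Thbd, Plaur, Plau, Tfpi2, Plat, F3 and Tfpi. In siCo cells the order was Procr, Thbd, Plau, Plaur, Serpine2, F3, Tfpi2, Tfpi and Plat. Within each group the libraries of neighbouring genes did not overlap. For Plau and Plaur in siCo cells the margin was small, with a lowest Plau of 78.05 and a highest Plaur of 77.77 FPKM. Serpine2 thus stood first in siYAP/TAZ cells and below Plaur in siCo cells, and F3 stood below Plat in siYAP/TAZ cells and above it in siCo cells.

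Ratios of the FPKM of 2 genes within a library do not depend on the scaling between libraries, and 5 were examined. F3 over Tfpi was 1.19 and 1.08 in siYAP/TAZ cells and 4.62 and 5.03 in siCo cells. F3 over Tfpi2 was 0.223 and 0.230 in siYAP/TAZ cells and 1.89 and 1.98 in siCo cells. Tissue factor RNA therefore exceeded Tfpi2 RNA per length in siCo cells and was below it in siYAP/TAZ cells. F3 over Thbd was 0.0798 and 0.0747 in siYAP/TAZ cells and 0.386 and 0.409 in siCo cells. Tfpi2 over Tfpi was 5.32 and 4.71 in siYAP/TAZ cells and 2.45 and 2.54 in siCo cells.

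Plau over Plaur was 0.816 and 0.871 in siYAP/TAZ cells and 1.12 and 1.00 in siCo cells, so the RNA of uPA was below that of its receptor per length in siYAP/TAZ cells and level with it or above it in siCo cells. In all 5 ratios the groups did not overlap, as for the FPKM of 77.2% of single genes tested. The ratios of F3 over Tfpi, Tfpi2 and Thbd share their numerator and are not separate results. Each of the 5 ratios gave p = 0.333 in a two-sided exact permutation test, also after Benjamini-Hochberg adjustment. This is the smallest p that 2 libraries against 2 allow. RNA levels do not measure the activity of these proteins.

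**Figure D3:**
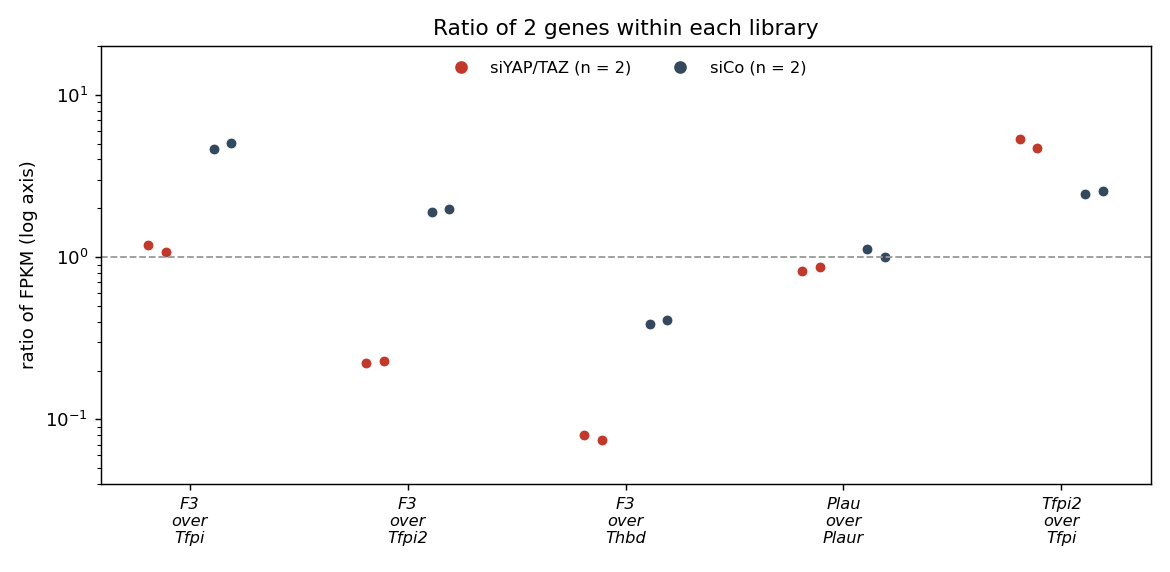
Ratio of the FPKM of 2 genes within each library (log axis), with 1 point for each of 2 siYAP/TAZ and 2 siCo libraries and a dashed line at a ratio of 1. F3 over Tfpi2 lies below the line in siYAP/TAZ cells (0.223 and 0.230) and above it in siCo cells (1.89 and 1.98).

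Of 15 other genes of the plasminogen system, 9 were tested, and 5 rose, 2 fell and 2 did not pass (median log2 fold change 0.24). Plasminogen itself, which is made mainly in liver, had 1 and 0 counts in siYAP/TAZ libraries and 0 and 0 in siCo libraries. Plgrkt, a transmembrane plasminogen receptor, was at 11.99 and 12.13 FPKM in siYAP/TAZ cells and at 8.95 and 8.06 FPKM in siCo cells, with a log2 fold change of 0.55 (adjusted p = 1.689e-06, edgeR). Mrc2, a collagen receptor that associates with the uPA receptor, had means of 39.3 and 31.2 FPKM in siYAP/TAZ and siCo cells and a log2 fold change of 0.38 (adjusted p = 2.012e-06, edgeR). Vldlr, an endocytic receptor that clears complexes of proteases and serpins, had means of 10.4 and 8.67 FPKM in siYAP/TAZ and siCo cells and a log2 fold change of 0.31 (adjusted p = 1.955e-05, edgeR). Lrp1, a further such receptor, had means of 57.2 and 49.95 FPKM in siYAP/TAZ and siCo cells and a log2 fold change of 0.24 (adjusted p = 0.0006375, edgeR), a call that was lost with DESeq2 (adjusted p = 0.0936) and with limma on both FPKM scales (adjusted p = 0.0869 and 0.0846). Its log2 fold change was 0.15 without siCo replicate 2. S100a10, which binds plasminogen at the cell surface with annexin A2, was at 197 and 193 FPKM in siYAP/TAZ cells and at 215 and 234 FPKM in siCo cells. Its log2 fold change was -0.16 (adjusted p = 0.00757, edgeR), a call that was lost without siCo replicate 2 (-0.09, adjusted p = 0.0875) and without siYAP/TAZ replicate 2 (-0.13, adjusted p = 0.107). The other gene that fell, Serpinf2, which encodes the plasmin inhibitor alpha-2-antiplasmin, had 13 and 7 counts in siYAP/TAZ libraries and 28 and 24 counts in siCo libraries. Serpinb2, an inhibitor of uPA, was at 81.3 and 82.8 FPKM in siYAP/TAZ cells and at 91.6 and 87.6 FPKM in siCo cells and did not pass the test (adjusted p = 0.121, edgeR).

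Of 21 other coagulation genes, 6 were tested, and 3 rose, none fell and 3 did not pass, with a median log2 fold change of 0.12. Expression of this list was low, with 19 genes under 1 FPKM in every library, and 5 of these (F2, F9, F10, F13b and Fgb) had no count in any library. Pros1, which encodes protein S, a cofactor of activated protein C, was at 26.3 and 23.9 FPKM in siYAP/TAZ cells and at 20.7 and 19.9 FPKM in siCo cells. Its log2 fold change was 0.35 (adjusted p = 1.35e-05, edgeR). F5 and F8 also passed the test, at under 1 FPKM.

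The 4 protease-activated receptors carry signals of thrombin and related proteases into the cell. F2r, the main thrombin receptor, was at 18.6 and 16.9 FPKM in siYAP/TAZ cells and at 24.1 and 26.3 FPKM in siCo cells, with a log2 fold change of -0.46 (adjusted p = 1.782e-06, edgeR). F2rl3, a further thrombin receptor, was counted 65 and 43 times in siYAP/TAZ libraries and 22 and 12 times in siCo libraries. The log2 fold change of F2rl3 was 1.72 ± 0.340 (standard error; edgeR adjusted p = 0.0001899), which ranged between 0.77 on the log2(FPKM + 1) scale and 2.20 without siCo replicate 1. F2rl1 had a log2 fold change of -0.38 (adjusted p = 0.443, edgeR) and did not pass, and F2rl2, with at most 1 count per library, was not tested.

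**Figure D4:**
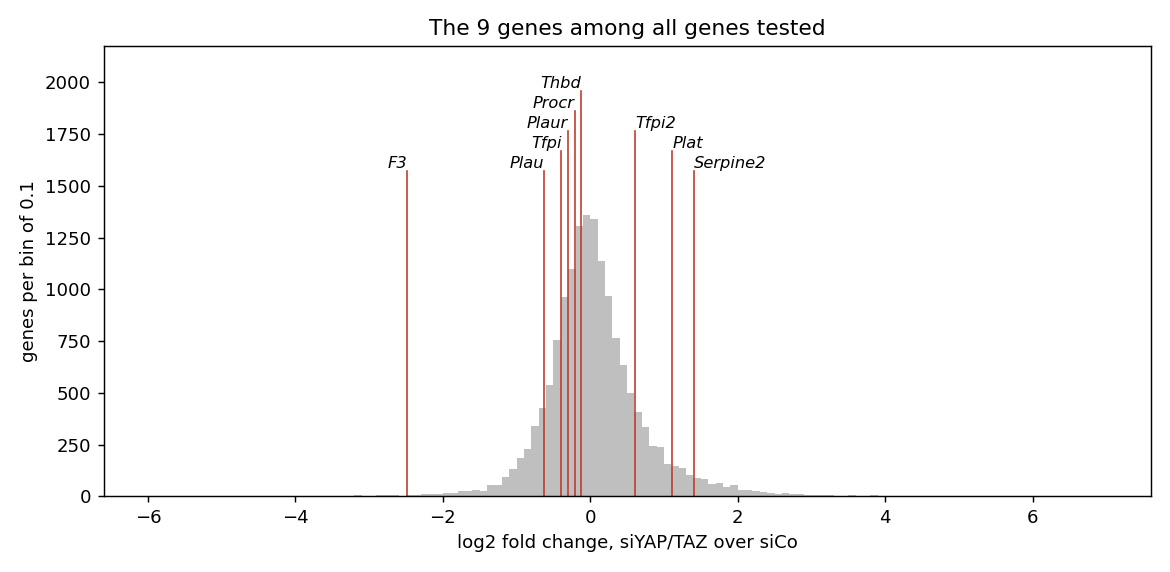
Histogram of the log2 fold change, siYAP/TAZ over siCo, of all 15479 genes tested, in bins of 0.1, with a line for each of the 9 genes. F3 (-2.48) lies in the lower tail and Plat (1.11) and Serpine2 (1.41) in the upper shoulder, while Thbd, Procr, Plaur and Tfpi lie between -0.39 and -0.12.

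Several of the 9 genes are also known from endothelial cells, so markers of other cell types were measured beside them. The 12 endothelial markers summed to 174 and 181 FPKM in siYAP/TAZ cells and to 138 and 136 FPKM in siCo cells, with 9 higher, 2 lower and 1 not passed, and none was at 0. Their median log2 fold change was 0.88. Cdh5, which encodes VE-cadherin, had the highest level, with means of 44.4 and 42.2 FPKM in siYAP/TAZ and siCo cells. Nos3, which encodes endothelial nitric oxide synthase, had the largest log2 fold change of the list, 1.73, with means of 8.70 and 2.71 FPKM in siYAP/TAZ and siCo cells. Emcn (-0.41) and Kdr (-0.22) fell. Endothelial markers were thus present in all 4 libraries of cells labelled as SMCs, and their part in the levels or changes of the 9 genes was not tested. Of the 12 macrophage markers 5 were tested and 4 rose. This list summed to 25.5 and 30.0 FPKM in siYAP/TAZ cells and to 10.8 and 10.9 FPKM in siCo cells. Mpeg1 rose most, with means of 10.15 and 1.04 FPKM in siYAP/TAZ and siCo cells, and Csf1r did not pass. Adgre1, Tyrobp, C1qa, C1qb and C1qc had no count in any library. Of the 9 fibroblast markers 7 were tested and 7 rose. Their list summed to 821 and 796 FPKM in siYAP/TAZ cells and to 540.2 and 455 FPKM in siCo cells. Ly6a and Dcn made up most of the fibroblast sum. Means in siYAP/TAZ and siCo cells were 419.4 and 218.5 FPKM for Ly6a and 191.2 and 114.6 FPKM for Dcn. Of the 9 pericyte markers 8 were tested and 6 rose (sums of 115.0 and 115.1 FPKM in siYAP/TAZ cells and 58.8 and 54.3 FPKM in siCo cells), and Higd1b was at 0. Of all genes tested, 27.6% were called higher. The part of these marker lists in the changes of the 9 genes was not tested either.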

How the data were processed

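Bulk RNA-seq of 4 libraries was used. The series also has 2 single-nucleus samples (rat), which are not analysed here. Reads were trimmed with Trimmomatic and aligned with HISAT2 to mm10 per the submitters' processing notes, which give no versions. Strand handling is not stated in those notes or in the methods. The authors deposited raw counts per gene together with FPKM values. The FPKM formula of the authors (count over exonic length and library total) returned the values deposited for the siCo libraries in all 55573 genes, and FPKM was computed from the counts with it. Of the siYAP/TAZ libraries, 2 FPKM columns were not used. Their count columns name the group and not the sample, and replicates 1 and 2 follow their names in the table. Of 55630 rows, 57 name no gene and were left out.

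The test was edgeR's quasi-likelihood test on the counts (edgeR 4.0.16, R 4.3.3, TMM normalisation, filterByExpr at a minimum count of 10, Benjamini-Hochberg adjustment over 15479 genes, threshold 0.05), with 18.6 prior and 2 residual degrees of freedom. Standard errors were the log2 fold change over the square root of F. The fit was tested on simulated data. No annotated gene of GENCODE M21 overlaps any of the 9 genes. Promoter windows came from RefSeq (GRCm38.p6, 27025 genes).

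The 9 genes and the lists were chosen with earlier results of these data known. Named genes were the siRNA targets, the 9 genes, the protease-activated receptors, up to 4 genes of each related list with the largest change past the threshold at 1 FPKM or more, and the 3 genes nearest to F3. Serpinb2, S100a10, Serpinf2, F5, F8, plasminogen and the markers were named beyond this rule after their values were seen. Alternatives were DESeq2 1.42.0, library totals, upper quartile factors, no filter on low counts, limma 3.58.1 on log2(FPKM + 1) and log2(FPKM + 0.1), a block for the replicate number, and fits without each library in turn. The result of 1 related gene is not reported here.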

Additional observations from a re-analysis of the deposited data

How the results depend on the processing

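Of 99 values of the 9 genes under 11 alternatives, 96 kept their direction and their side of the threshold. The 3 others were those of Thbd, whose log2 fold change was -0.0784 with upper quartile factors (adjusted p = 0.117, edgeR) and -0.145 to -0.0826 when either siYAP/TAZ library was left out. The cause was not tested. Under these 3 settings 8 of the 9 genes were called, and 9 under each of the others. All 35 values of the ratios kept their direction. Leaving out a library could not reverse it, because the groups did not overlap in any ratio. Over all genes, 8569 were called, with 6582 under DESeq2 and 7054 to 8321 when 1 library was left out. Same-numbered libraries did not deviate together (correlation 0.00774 over genes tested), and with the replicate block 8868 genes and all 9 members of the group were called. Of the plasminogen list, Lrp1 lost its call under DESeq2 and both limma fits, and S100a10 without siCo replicate 2 and without siYAP/TAZ replicate 2. With 2 libraries per group, the spread rests mainly on the trend over all genes.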
